A study of Mus musculus with 20 samples.

Results

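Livers of female B6.Pdss2(kd/kd) mice given coenzyme Q10 (CoQ10) were compared with livers of female wild-type B6 mice, using 5 mice of each kind out of the 20 mice of the series. Both groups were taken by their treatment and source labels, which name them without contradiction. The CoQ10-treated mutants carried 2 copies of kd, a missense allele of Pdss2, were 153 to 156 days old and received CoQ10 at 1 mg/ml for life, which the submitters put at about 400 mg per kg body weight per day. The wild-type mice were untreated and were 215 to 217 days old. The mutant mice were in backcross generation 13 and carried, around the kd allele, a recombinant chromosome left by its positional cloning. Genotype, treatment and age therefore changed together between these groups and cannot be told apart in any result below. The remaining 10 mice were mutants labelled untreated (129 to 143 days) or probucol (140 to 145 days). Because their treatment field and array names contradict each other, they are used here only as an average of both groups or with the label named. Each liver's total RNA was measured on 1 Illumina Mouse WG-6 BeadChip array, a slide of beads that carry gene-specific probes.

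Pdss2 encodes a subunit of the enzyme that builds the long isoprenoid tail of coenzyme Q. Coenzyme Q is a lipid of the mitochondrial inner membrane that takes electrons from complexes I and II, and from several other dehydrogenases, and passes them to complex III. Mice with the kd allele are known for a kidney disease. Feeding of CoQ10 is intended to supply the missing lipid from outside.

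The label records give a glomerular nephritis score for each mouse, a grade of kidney damage. It was 2, 0, 0, 0 and 2 in the CoQ10-treated mutants and 0, 0, 1, 0 and 0 in wild-type mice. The means were 0.8 ± 1.10 and 0.2 ± 0.447 (SD, n = 5 each), and the groups overlapped (exact two-sided permutation test, p = 0.444; 0.00794 is the smallest p that 252 regroupings can give).

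Between 12587 and 14613 probes were detected in CoQ10-treated mutant livers and between 12519 and 14972 in wild-type livers, and 15096 of 45281 probes passed the filter on dim probes. They covered 9262 named genes. The Pdss2 transcript itself was not analysed here, for want of a probe under that name. Hepatocyte identity was clear, as 9 of 11 hepatocyte markers, including Alb, Apoa1 and Hnf4a, were detected in all 10 livers, whereas Tat and Fgb were detected in none. The first principal component of the 10 livers held 31.3% of the variance and did not separate the groups (-38.9 to 17.5 in CoQ10-treated mutants, -26.9 to 23.9 in wild type). The second held 18.7% and did (-0.25 to 31.2 in CoQ10-treated mutants, -18.2 to -7.82 in wild type). The 3 livers lowest on the first component were CoQ10 replicates 1 and 2 and wild-type replicate 1, and that wild-type liver also stood apart for clock and fasting genes described below. Without these 3 livers 45 probes were called, against 66 with them. The array number, 1 to 4, that ends each array name was shared by all groups, and the labels do not say what it stands for.

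Few genes separated CoQ10-treated mutant livers from wild-type livers, with the macrophage genes Folr2 and C1qa, the interferon-inducible Ifi27l2a and the mitochondrial proteins Ndufb2, Mrpl20 and Cox7a1 among those that rose, and the insulin-degrading enzyme Ide, the mitochondrial carrier Slc25a34, the coactivator Ppargc1b and the clock repressor Nr1d1 among those that fell. Of 15096 probes, 66 were called (limma, adjusted p under 0.05), which is 0.437% of those tested. Of these, 30 were higher (0.199%) and 36 lower (0.238%) in CoQ10-treated mutants. They covered 54 named genes, 23 higher and 31 lower, and the called log2 differences ranged in size between 0.54 and 2.18. The 2 groups did not overlap for 63 of the 66 probes, while they did not overlap for 4.61% of all probes tested. The 30 genes named below as largest rises and falls were picked among called probes without overlap. For them the lack of overlap describes the values and adds no support to the call. At an unadjusted p under 0.05 there were 2008 probes (13.3%). In the average of the other mutants minus wild type all 66 called probes had the same sign, and 18 were called there too. In that comparison 0.391% of all probes were called, and it uses the same wild-type livers. A fit that took array number as a block called 316 probes (2.09%), including all 66. With the letter beside that number as a block instead, 38 were called, and 32 of the 66 were kept. No other alternative called as many probes as the array-number block. Calls given below for that block alone therefore carry less weight. All 66 had the same sign within each of the 4 array numbers. For the 63 without overlap this could not have come out otherwise, so it adds nothing to their calls. Leaving out 1 liver at a time moved the count between 22 without wild-type replicate 2 and 100 without wild-type replicate 1. Calls against wild type were followed through these fits for 38 named genes, which do not include Tapbp, described below. Of the 38 genes, 14 kept the call in all 10 such fits: Ddo, Rsph4a, Ide, Enpp6, Slc25a34, Rev3l, Cdc40, Folr2, Nr1d1, Mycl, Csrnp1, Mast3, Erh and Gtf3c6. The other 24 lost it in at least 1 fit, with a largest adjusted p between 0.0526 and 0.145. Ndufb2 and Trib3 kept it in 0 fits, and Ppargc1b, Mfsd4b1, Sult3a1, Calhm6 and Aqp8 in 1. Cox7a1, Fbxo31, Mknk2, Cyth1, Clic1 and Pnpla2 kept it in 2, and Bdh1, Nudt7, Fpr2, Cd209f, Zbtb24 and Fam110c in 3. Mrpl20 and Erdr1 kept it in 6, C1qa in 7, Tmem160 in 8 and Ifi27l2a in 9. Sizes depend on background correction: of 47 called differences of named genes, 28 were smaller by over 1.5 times on the authors' log2 values and 26 without background correction, with 0 changes of sign.

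Among the genes that rose were 2 of 15 measured macrophage markers, Folr2 and C1qa. Folr2, the folate receptor beta of tissue macrophages, had log2 intensities of 9.57, 9.47, 9.15, 9.18 and 9.46 in CoQ10-treated mutants and of 8.39, 8.15, 8.26, 8.15 and 8.69 in wild type. Every treated mutant liver lay above every wild-type liver, and the log2 difference was 1.04 ± 0.15 (SE; 2.05-fold, adjusted p = 0.00133). A second Folr2 probe was called as well, at 0.88. C1qa, a chain of complement C1q that macrophages secrete, had 9.42, 9.26, 8.85, 8.84 and 9.10 in CoQ10-treated mutants, against 8.32, 8.13, 8.32, 7.95 and 8.35 in wild type. These groups did not overlap either (0.88 ± 0.17, adjusted p = 0.0189). Cd209f, a lectin of the DC-SIGN family, was detected in 5 of 5 treated mutant livers and in 0 of 5 wild-type livers, and was at least 1.32-fold higher (adjusted p = 0.0391). Those 5 detections alone were enough for Cd209f to pass the filter on dim probes. On the authors' log2 values Cd209f differed by 0.24 and was not called (adjusted p = 0.0786). Fpr2, a receptor for formylated peptides on myeloid cells, rose by 0.87 ± 0.18 (adjusted p = 0.0284). Clic1, a chloride intracellular channel protein, was detected in 5 treated mutant livers and 1 wild-type liver and rose by 0.78 ± 0.16 (adjusted p = 0.0391). With wild type near background its size is uncertain, and on the authors' log2 values it was 0.26 without a call (adjusted p = 0.0851).

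Most of the Kupffer cell and macrophage markers lay on the same side. Of 15 measured markers 14 were above 0, with a median log2 difference of 0.33, beside 4631 of 9262 genes above 0 and a median of -0.00 over all genes. Folr2 and C1qa were the 2 called markers, where 0.54% of all genes were called (0.216% higher, 0.324% lower), and with the array number as a block C1qb (0.57) and Clec4f (0.47), a lectin specific to Kupffer cells, were also called. C1qb had 11.21, 11.21, 11.02, 11.12 and 11.22 in CoQ10-treated mutants, against 10.44, 10.57, 10.59, 10.54 and 10.80 in wild type, which do not overlap, but its adjusted p was 0.0523. Timd4, a phosphatidylserine receptor of resident Kupffer cells, averaged 7.70 ± 0.39 in CoQ10-treated mutants and 7.09 ± 0.284 in wild type (SD, n = 5 each), with an adjusted p of 0.103. The summed linear level of the 15 markers ranged from 26277 to 34237 in CoQ10-treated mutants and from 21369 to 26683 in wild type. Cd5l was detected in 0 of the 10 livers. In the average of the other mutants minus wild type, with the same wild-type livers, the marker median was 0.24. There the first Folr2 probe differed by 0.57 and C1qa by 0.42. Between CoQ10-treated and other mutants 0 of these markers were called, with a median of 0.13. In whole-liver RNA more cells of a type and more RNA per cell cannot be told apart. No sinusoidal endothelial, dendritic, stellate, cholangiocyte, T and NK cell or neutrophil marker was called. The medians were -0.03 over 11 endothelial, 0.03 over 3 dendritic, -0.00 over 12 stellate and matrix, -0.71 over 2 cholangiocyte, -0.03 over 4 T and NK cell and 0.45 over 3 neutrophil markers. Once array number was a block, 2 stellate and matrix markers were called higher, the collagen gene Col3a1 (0.48 without the block) and the hepatocyte growth factor gene Hgf (0.66). The part of cell composition in the other results was not tested.

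**Figure D1:**
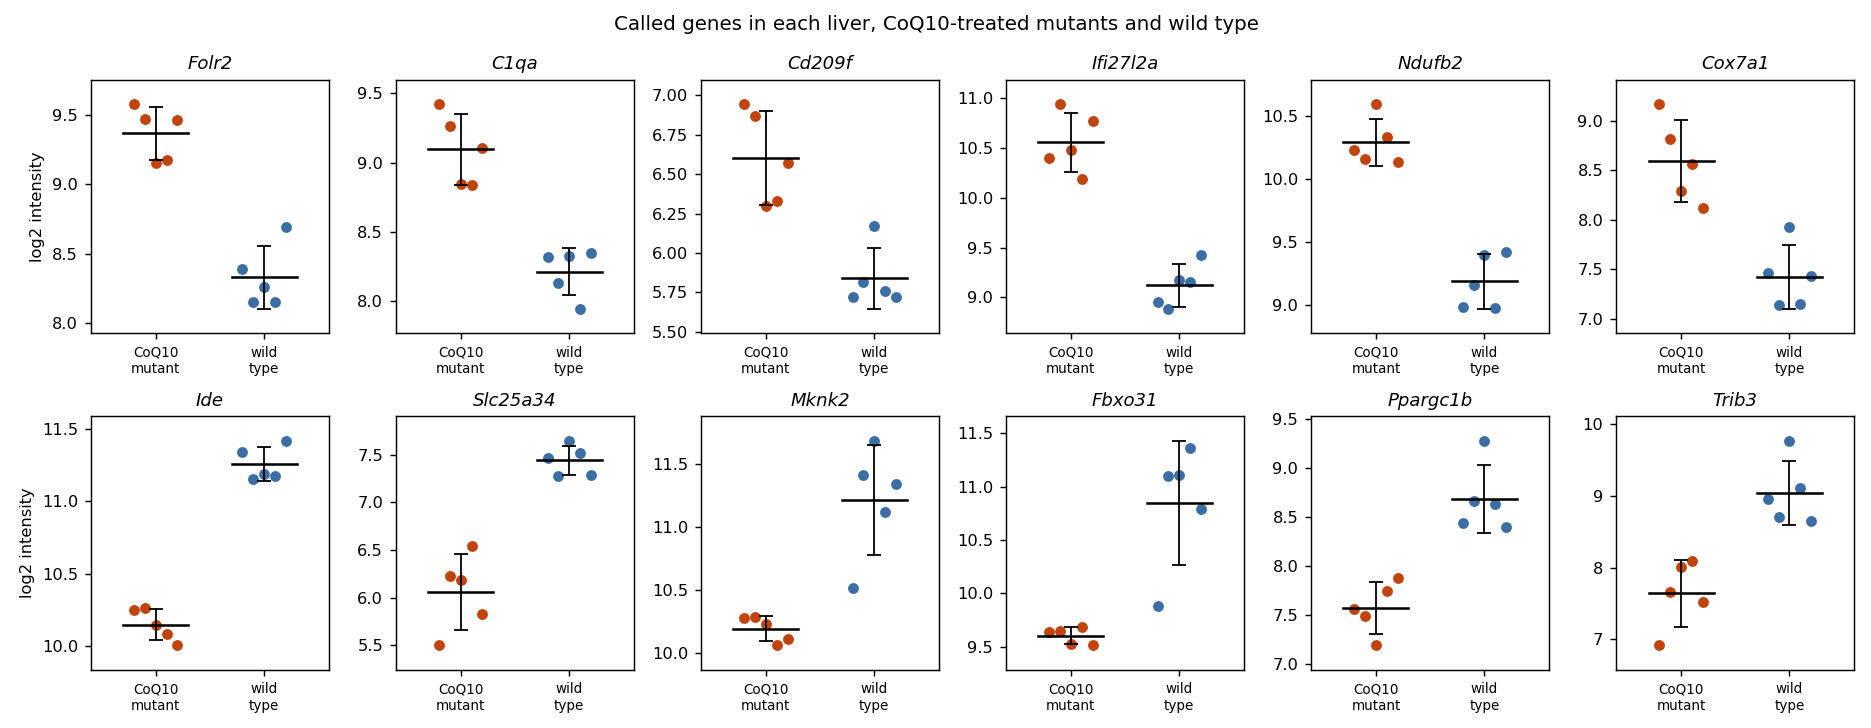
Normalised log2 intensity (y axis, its range set per gene) of 12 called genes in each liver of CoQ10-treated mutants (left, n = 5) and wild type (right, n = 5). Points are livers, long bars are means and error bars are SD. The 12 were picked among called genes whose groups do not overlap. The lowest wild-type point of Mknk2 and of Fbxo31, at 10.51 and 9.88, is wild-type replicate 1.

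Ifi27l2a, an interferon-inducible gene, had 10.40, 10.94, 10.48, 10.19 and 10.77 in CoQ10-treated mutants, against 8.95, 8.89, 9.18, 9.15 and 9.43 in wild type. It rose without overlap by 1.44 ± 0.26 (2.71-fold, adjusted p = 0.0134). Of 23 measured genes of the interferon response list 20 were above 0, with a median of 0.25, and 0 were called, while 5 had an unadjusted p under 0.05 in the higher direction, as did 7.58% of all genes. Isg15, a ubiquitin-like protein induced by interferon, averaged 8.03 ± 0.581 in CoQ10-treated mutants and 6.93 ± 0.701 in wild type (SD, n = 5 each; adjusted p = 0.119), and these groups overlapped. In the average of the other mutants minus wild type the median of the same list was -0.01. Ifi27l2a, which is not on that list, differed by 0.83 there, in the same direction as in CoQ10-treated mutants.

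Most genes for subunits of the respiratory chain and of ribosomes had small differences above 0, and few were called. Ndufb2, an accessory subunit of complex I, had 10.23, 10.16, 10.59, 10.33 and 10.14 in CoQ10-treated mutants, against 8.98, 9.16, 9.40, 8.98 and 9.42 in wild type. The gap between the groups was wider than either spread (1.10 ± 0.23, adjusted p = 0.0319), although the call was lost in each of the 10 fits without 1 liver, with a largest adjusted p of 0.101. Mrpl20, a protein of the mitochondrial ribosome, rose by 0.89 ± 0.17 (adjusted p = 0.0220), and Cox7a1, the heart and muscle isoform of a cytochrome oxidase subunit, by 1.17 ± 0.25 (adjusted p = 0.0425). Complex I had 30 of 34 measured subunits above 0, with a median of 0.17 and 1 called. Complexes III, IV and V had 25 of 30 listed subunits above 0, with a median of 0.18 and 0 called, a list that does not hold the muscle isoform Cox7a1. Among them Uqcr11, a small subunit of complex III, averaged 14.52 ± 0.183 in CoQ10-treated mutants and 13.97 ± 0.151 in wild type (SD, n = 5 each; adjusted p = 0.0683). Once array number was a block, 3 complex I subunits (Ndufb2, Ndufb4 and Ndufa2) and 5 subunits of complexes III to V (Uqcr11, Atp5e, Atp5h, Cox7b and Atp5l) were called higher, beside 1.35% of all genes called higher, 0.896% called lower and 2.25% either way in that fit.

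Mitochondrial ribosomal proteins had 47 of 65 members above 0 (median 0.15, 1 called, 3 with the block). Cytosolic ribosomal proteins had 47 of 50 above 0 (median 0.21, 0 called, 8 with the block), led by Rpl12, a protein of the large subunit, which had 13.20, 13.20, 13.29, 13.09 and 12.95 in CoQ10-treated mutants and 12.55, 12.36, 12.49, 12.53 and 12.76 in wild type. These values did not overlap, and the adjusted p was 0.0530. The average of the other mutants minus wild type had medians of 0.16 for complex I, 0.13 for complexes III to V, 0.14 for mitochondrial and 0.18 for cytosolic ribosomal proteins. Both comparisons use the same 5 wild-type livers.

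No enzyme that makes coenzyme Q was called. Of 10 measured members 5 were above 0, the median was -0.00 and the range was -0.21 to 0.20. Coq2, which joins the tail to the ring, averaged 10.94 ± 0.208 in CoQ10-treated mutants and 10.79 ± 0.138 in wild type (SD, n = 5 each), with a log2 difference of 0.15 and a 95% interval of -0.07 to 0.38. Coq5, a methyltransferase of the ring, differed by -0.21 (95% interval -0.46 to 0.05), the kinase-like Coq8a by -0.21 and its relative Coq8b by 0.20. Of 12 dehydrogenases that hand electrons to coenzyme Q, 7 were above 0 with a median of 0.03 and 0 called. Within that list Sdhb and Sdhd, subunits of complex II, differed by 0.41 and 0.33, and Etfdh, the entry point of electrons from fat oxidation, by -0.48 (adjusted p = 0.316, 0.344 and 0.193). Chdh, the choline dehydrogenase, had values in CoQ10-treated mutants between 8.18 and 8.60, below the wild-type range of 8.69 to 8.96, at an adjusted p of 0.174.

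Among the genes that fell, Ide, the insulin-degrading enzyme, had 10.25, 10.26, 10.14, 10.08 and 10.003 in CoQ10-treated mutants and 11.35, 11.15, 11.19, 11.18 and 11.42 in wild type. The groups were far apart for their spread (-1.11 ± 0.12, adjusted p = 5.75e-05), and a second Ide probe was called in the same direction. The remaining measured Ide probe differed the other way, at 0.74, without a call, so the probes of this gene disagree. In the average of the other mutants minus wild type the called Ide probes differed by -0.91 and -0.87. Slc25a34, a member of the mitochondrial carrier family, had 5.501, 6.22, 6.19, 6.54 and 5.83 in CoQ10-treated mutants and 7.46, 7.28, 7.64, 7.52 and 7.29 in wild type, without overlap (-1.38 ± 0.19, adjusted p = 0.000776). It was detected in 2 of 5 treated mutant livers and 5 of 5 wild-type livers, and the difference was -0.52 on the authors' log2 values. The average of the other mutants differed from wild type by -1.25 for Slc25a34.

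Ppargc1b, which encodes the coactivator PGC-1 beta of mitochondrial and lipid genes, fell by 1.11 on the log2 scale (adjusted p = 0.0425). Its relative Ppargc1a (PGC-1 alpha), an inducer of gluconeogenic genes, averaged 7.77 ± 0.33 in CoQ10-treated mutants and 8.65 ± 0.387 in wild type (SD, n = 5 each), which did not overlap, at an adjusted p of 0.0658. Trib3, a pseudokinase induced by fasting and by the integrated stress response, had 6.92, 7.67, 8.01, 8.10 and 7.52 in CoQ10-treated mutants, against 8.96, 8.71, 9.77, 9.11 and 8.65 in wild type. The groups were separate (-1.40 ± 0.31, adjusted p = 0.0468), but the call was lost in each of the 10 fits without 1 liver. Mknk2, a kinase that phosphorylates the translation factor eIF4E, Fbxo31, a subunit of a ubiquitin ligase, and Cyth1, an exchange factor for ARF GTPases, fell by 1.02, 1.25 and 1.01. The Myc family member Mycl fell by 1.26 ± 0.19 (adjusted p = 0.00244).

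Among genes of fatty acid oxidation and targets of PPAR alpha, the fasting-activated receptor of liver, 34 of 35 measured members were below 0, with a median of -0.26. Bdh1, which makes the ketone body 3-hydroxybutyrate, was the 1 called member, with 11.83, 11.72, 11.63, 11.71 and 11.51 in CoQ10-treated mutants and 12.26, 12.18, 12.02, 12.51 and 12.11 in wild type (-0.54 ± 0.11, adjusted p = 0.0319). Its groups did not overlap. Acaa1a, the peroxisomal thiolase, and Acadm, the medium-chain acyl-CoA dehydrogenase, differed by -0.56 and -0.54 without overlap, had adjusted p values of 0.0724 and 0.0743, and were called with the array number as a block. In all, 11 members had an unadjusted p under 0.05 in the lower direction, where 6.32% of all genes did. The average of the other mutants minus wild type had a median of -0.32 for this list. Nudt7, the peroxisomal diphosphatase that breaks down coenzyme A, went the other way, with 11.16, 10.90, 11.38, 11.24 and 11.43 in CoQ10-treated mutants and 10.83, 9.86, 10.56, 10.14 and 10.11 in wild type. This was a called rise (0.92 ± 0.19, adjusted p = 0.0283), and its 4 probes ranged from 0.47 to 1.21. The called Nudt7 probe differed by 0.98 in the average of the other mutants minus wild type.

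The gluconeogenesis and fasting list had 15 of 18 measured members below 0, a median of -0.28 and Trib3 as its 1 called gene. Fatty acid and triglyceride synthesis had 15 of 24 above 0 and a median of 0.10 (0.04 without CoQ10 replicate 1 or wild-type replicate 4). Its 1 called member was Pnpla2, a lipase that in fact breaks triglycerides down, with 10.98, 11.57, 10.89, 11.30 and 10.73 in CoQ10-treated mutants, against 11.72, 12.01, 11.91, 12.002 and 11.67 in wild type (-0.77 ± 0.17, adjusted p = 0.0425). The groups were separate by a narrow margin. G0s2, the inhibitor of that lipase, averaged 10.21 ± 0.409 in CoQ10-treated mutants and 11.42 ± 0.233 in wild type (SD, n = 5 each; adjusted p = 0.0965). In the average of the other mutants minus wild type G0s2 was called, at -1.72.

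No gene of the bile acid and sterol lists was called, although Abcc3 was called lower once array number was a block. Cyp7a1, the rate-limiting enzyme of bile acid synthesis, had 12.33, 12.51, 13.19, 12.93 and 12.38 in CoQ10-treated mutants and 11.99, 10.30, 10.73, 11.32 and 10.59 in wild type. Every treated mutant liver was above every wild-type liver, but the wild-type spread was wide and the difference of 1.68 ± 0.51 had an adjusted p of 0.130. Of 21 measured members of the bile acid list 16 were below 0 (median -0.10, and -0.23 without CoQ10 replicate 5), among them the export pumps Abcc3 at -0.60 and Abcc4 at -0.53. Of 19 genes of mevalonate and sterol synthesis 11 were above 0, with a median of 0.05. Aqp8, a water channel of hepatocytes, was a called rise of 0.98 ± 0.22 with 1 probe (adjusted p = 0.0495).

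Of 15 measured circadian clock genes 11 were below 0 in CoQ10-treated mutants minus wild type, with a median of -0.52, and Nr1d1 was the 1 called gene. Without 1 liver the median ran from -0.90 (without wild-type replicate 1) to -0.35 (without wild-type replicate 3). The clock is a loop in which CLOCK and ARNTL drive their own repressors and output factors, many of which cycle steeply in liver over the day, and the labels used here do not state the time of day of collection. Nr1d1, which encodes the repressor REV-ERB alpha, had 5.80, 6.22, 5.38, 6.58 and 5.70 in CoQ10-treated mutants, against 7.04, 7.88, 8.37, 7.72 and 7.60 in wild type. The groups did not overlap, the probe was detected in 1 treated mutant liver and in 5 wild-type livers, and the difference was -1.79 ± 0.26 (adjusted p = 0.00158). With most treated mutant livers near background its size is uncertain, and it was -0.72 on the authors' log2 values. Bhlhe40, another transcriptional repressor of the loop, averaged 10.35 ± 0.298 in CoQ10-treated mutants and 11.39 ± 0.428 in wild type (adjusted p = 0.0621). Nr1d2, the REV-ERB beta gene, averaged 7.14 ± 0.526 and Tef, a PAR bZIP output factor, 8.12 ± 0.283 in CoQ10-treated mutants, against 8.39 ± 0.679 and 9.16 ± 0.464 in wild type (SD, n = 5 each; adjusted p = 0.105 and 0.116). Bhlhe40 was called once array number was a block.

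The clock median within single array numbers ran from -1.57 to -0.11. In the average of the other mutants minus wild type the median was -0.13. Arntl, an activator of the loop that peaks opposite to Nr1d1, and Dbp, an output factor, were named after their values were seen. Arntl averaged 8.99 ± 0.266 in CoQ10-treated mutants and 8.23 ± 0.430 in wild type, and Dbp averaged 7.17 ± 0.507 in CoQ10-treated mutants and 9.35 ± 1.61 in wild type (adjusted p = 0.270 and 0.185). Wild-type replicate 1 was the lowest wild-type liver for Nr1d1, Bhlhe40 and Nr1d2. Without it Bhlhe40 and Nr1d2 were called (adjusted p = 0.0257 and 0.0410), but leaving out the lowest wild-type liver must enlarge these falls. In the other fits without 1 liver neither was called, with a largest adjusted p of 0.179 and 0.267.

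The promoters of 3 of these genes are shown because REV-ERB and ROR receptors bind AGGTCA half-sites and CLOCK and ARNTL bind the E-box CACGTG, while PAR bZIP factors such as TEF bind D-boxes, searched here as TTANNTAA. The windows run from 250 bases before to 50 bases after the gene start (RefSeq, GRCm38.p6), both strands were searched, and capitals mark matches. Nr1d1 lies on the minus strand at chr11:98775328-98775627, Nr1d2 on the minus strand at chr14:18239057-18239356 and the first of the 2 Tef entries on the plus strand at chr15:81802423-81802722.
Nr1d1: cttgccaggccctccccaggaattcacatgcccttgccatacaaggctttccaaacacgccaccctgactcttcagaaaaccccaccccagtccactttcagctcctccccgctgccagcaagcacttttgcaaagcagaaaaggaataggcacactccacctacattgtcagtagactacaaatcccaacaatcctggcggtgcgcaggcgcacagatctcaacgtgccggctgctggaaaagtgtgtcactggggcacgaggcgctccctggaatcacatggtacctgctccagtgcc
Nr1d2: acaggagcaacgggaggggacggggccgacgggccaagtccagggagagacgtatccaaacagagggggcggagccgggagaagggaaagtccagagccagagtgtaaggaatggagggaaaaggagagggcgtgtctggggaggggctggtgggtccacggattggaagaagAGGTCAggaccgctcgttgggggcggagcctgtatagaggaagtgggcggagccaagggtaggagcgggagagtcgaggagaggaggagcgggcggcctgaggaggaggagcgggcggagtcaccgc
Tef: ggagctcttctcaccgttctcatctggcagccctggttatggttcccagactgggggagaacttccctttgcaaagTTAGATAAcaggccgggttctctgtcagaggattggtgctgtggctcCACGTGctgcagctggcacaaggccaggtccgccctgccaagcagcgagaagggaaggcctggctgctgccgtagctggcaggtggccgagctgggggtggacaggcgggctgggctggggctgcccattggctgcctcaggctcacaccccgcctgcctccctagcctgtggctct
The Nr1d1 window held none of the 3 motifs in these letters, the Nr1d2 window held 1 AGGTCA, and the Tef window held 1 E-box and 1 D-box match. The second Tef entry held 1 E-box and 0 D-boxes, the Dbp window none of the 3 motifs, and of 2 Arntl entries 1 held an AGGTCA and the other none. Of all 32851 RefSeq promoter windows given, 16.3% held AGGTCA, 7.15% the E-box and 6% the D-box.

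**Figure D2:**
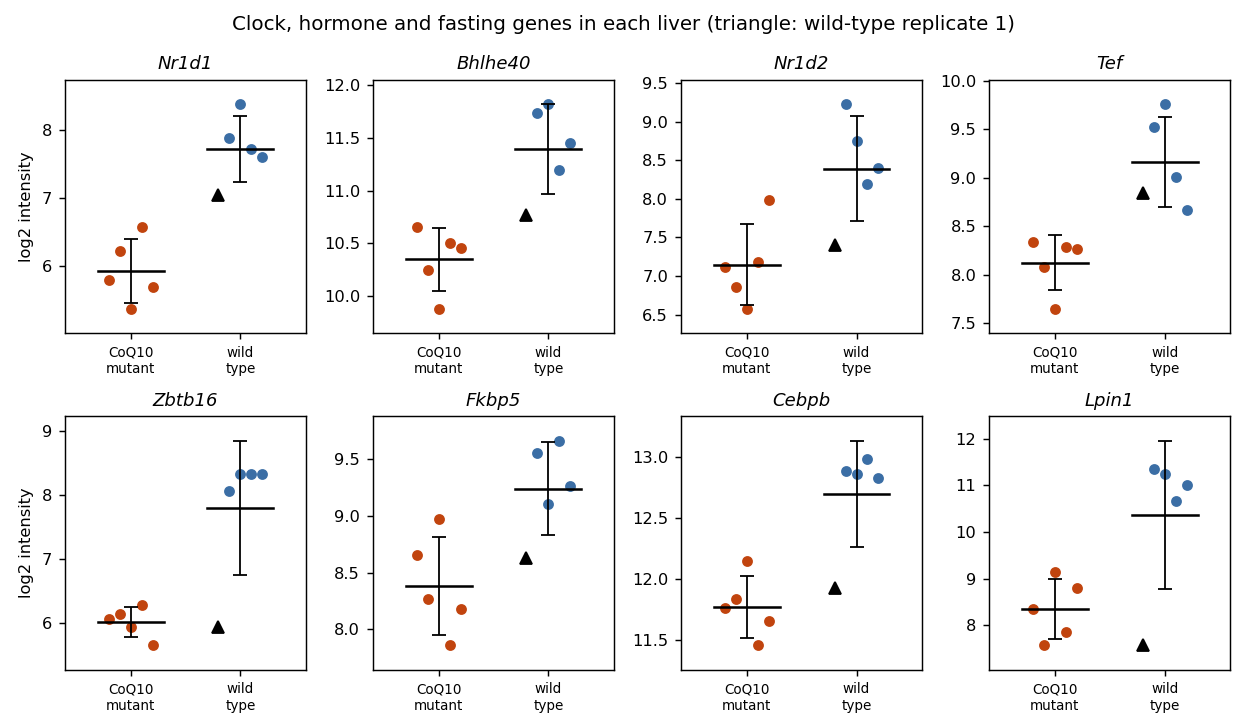
Normalised log2 intensity (y axis, its range set per gene) of 4 clock genes, 2 glucocorticoid-responsive genes (Zbtb16 and Fkbp5), Cebpb and Lpin1 in each liver of CoQ10-treated mutants (left) and wild type (right), n = 5 each. Bars are means, error bars are SD, and the black triangle is wild-type replicate 1, which lies inside the range of the CoQ10-treated mutants for Zbtb16 (5.94) and Cebpb (11.93) and below it for Lpin1 (7.57).

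Wild-type replicate 1 weighed on further genes that respond to glucocorticoids and fasting. Zbtb16, a glucocorticoid-induced transcription factor, had 6.06, 6.14, 5.94, 6.29 and 5.66 in CoQ10-treated mutants and 5.94, 8.07, 8.34, 8.34 and 8.34 in wild type. Of the wild-type livers 1 thus lay among the treated mutants, and the difference of -1.79 ± 0.42 was not called (adjusted p = 0.0590). Without that liver it was -2.25 (adjusted p = 0.00170). Lpin1, a phosphatidate phosphatase and coactivator induced by fasting, had 8.35, 7.58, 9.13, 7.84 and 8.81 in CoQ10-treated mutants and 7.57, 11.36, 11.25, 10.66 and 11.003 in wild type. Its difference was -2.03 ± 0.68 with all livers (adjusted p = 0.174) and -2.73 without wild-type replicate 1 (adjusted p = 0.0280). Leaving out the lowest wild-type liver must enlarge the falls of Zbtb16 and Lpin1. Each was called in that 1 fit of the 10 without 1 liver, and the largest adjusted p was 0.166 and 0.365. Fkbp5, a chaperone of the glucocorticoid receptor, averaged 8.39 ± 0.432 in CoQ10-treated mutants and 9.24 ± 0.408 in wild type (SD, n = 5 each; adjusted p = 0.114).

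Of 15 glucocorticoid-responsive genes and metallothioneins 12 were below 0, with a median of -0.50 (-0.27 without CoQ10 replicate 5) and 0 called, and Zbtb16 was called lower once array number was a block. Immediate early genes, which cells switch on within minutes of a stimulus, had 10 of 13 below 0, a median of -0.44 and Csrnp1 as the 1 called gene. That median was -0.20 without wild-type replicate 1, -0.24 without CoQ10 replicate 2 or 5, and -0.14 on the authors' log2 values. Csrnp1, a nuclear protein first found as an AXIN1-induced gene, had 7.85, 7.88, 7.74, 7.56 and 7.49 in CoQ10-treated mutants, against 8.72, 8.74, 9.18, 8.70 and 8.73 in wild type. The groups were well separated (-1.11 ± 0.17, adjusted p = 0.00293). Dusp1, a phosphatase that ends MAP kinase signals, averaged 10.55 ± 0.272 in CoQ10-treated mutants and 11.47 ± 0.424 in wild type without overlap, at an adjusted p of 0.155. Junb and Zfp36 differed by -0.53 and -0.67 and overlapped.

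Few stress and redox genes were called. Endoplasmic reticulum chaperones had 18 of 19 members below 0 with a median of -0.26 (-0.17 without CoQ10 replicate 2) and 0 called. The example of lowest p in that list was Syvn1, a ubiquitin ligase of the compartment, at -0.66 (adjusted p = 0.185). Hsp90b1 differed by -0.38. In the average of the other mutants minus wild type the chaperone median was 0.09. The integrated stress response list had 12 of 15 below 0, a median of -0.19 and Trib3 called. Of 17 antioxidant enzymes 11 were above 0 and 0 were called. Gpx4, the peroxidase that reduces lipid hydroperoxides, had 13.64, 13.87, 13.83, 13.93 and 13.64 in CoQ10-treated mutants, against 13.07, 12.92, 13.10, 13.06 and 13.23 in wild type, without overlap (0.71 ± 0.19, adjusted p = 0.0965). It was called with the array number as a block. Prdx4 differed by 0.37 and Sod1 by 0.29. Nrf2 targets had 18 of 29 below 0 and a median of -0.08. Male-biased liver genes had 13 of 18 above 0, a median of 0.17 and 0 called, with Mup20 at 0.58 and Serpina1e at 1.70 ± 0.74 (adjusted p = 0.199 and 0.314).

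**Figure D3:**
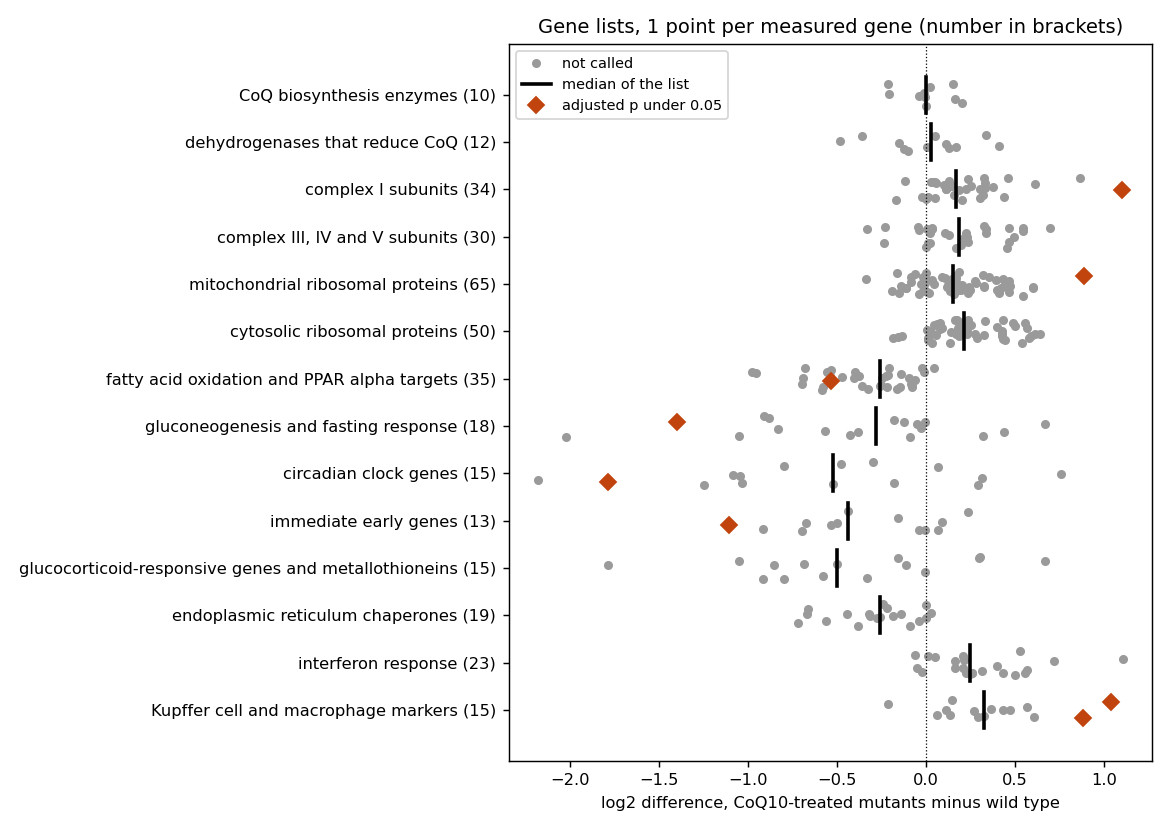
Log2 differences, CoQ10-treated mutants minus wild type (x axis), of the measured members of 14 gene lists, 1 point per gene and the number of members in brackets. Diamonds mark called genes and vertical bars list medians, which run from -0.52 for clock genes to 0.33 for Kupffer cell markers, while the dotted line marks 0.

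Several genes near Pdss2 were called. Of 129 measured probes within 100 protein-coding genes of Pdss2 on chromosome 10, 10 were called (7.75%), against 48 of 13058 elsewhere (0.368%). The 10 include the Rsph4a probe and a Ddo probe that passed the filter on dim probes through wild-type detections alone. Among probes detected on all 20 arrays, 6 of the window were called, beside 130 called in all. All 10 lay before Pdss2, in gene order, at 17 to 60 genes from it (15.2% of the 66 probes on that side), and 0 of the 63 probes after it were called. In the average of the other mutants minus wild type 9 probes of the window were called, beside 0.391% of all probes, and between CoQ10-treated and other mutants 0 of 129 were. All mutants share the recombinant chromosome, and both comparisons with wild type use the same wild-type livers.

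The largest fall of the window was in Ddo, D-aspartate oxidase, whose brighter and dimmer called probes differed by -0.84 ± 0.15 and -1.78 ± 0.13 (adjusted p = 0.00872 and 5.45e-08). The dimmer probe had 5.39, 5.38, 5.69, 5.86 and 5.71 in CoQ10-treated mutants, where it was detected in 0 of 5 livers, and 7.61, 7.29, 7.07, 7.42 and 7.54 in wild type, where it was detected in 5. It was at least 2.30-fold lower in the mutants, and the 4 measured Ddo probes disagreed, ranging from -1.78 to 0.48. Rsph4a, a radial spoke protein of motile cilia, was likewise detected in 0 treated mutant livers and 5 wild-type livers, and was at least 1.47-fold lower (adjusted p = 4.97e-07). Neither the Rsph4a probe nor the dimmer Ddo probe was detected in any liver of the other mutants. Both thus passed the filter on dim probes through their 5 wild-type detections alone. Rev3l, the catalytic part of the translesion polymerase zeta, had 5.77, 6.30, 6.16, 5.91 and 6.403 in CoQ10-treated mutants, against 7.11, 7.01, 7.18, 7.09 and 7.24 in wild type, a fall without overlap (-1.02 ± 0.14, adjusted p = 0.000776). Cdc40, a splicing factor, fell by 0.88 and Zbtb24, a zinc finger factor, by 0.80, with overlap for Zbtb24.

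Higher in CoQ10-treated mutants were Gtf3c6, a subunit of transcription factor TFIIIC, at 0.67 ± 0.12 (adjusted p = 0.00840), the transporter gene Mfsd4b1 at 0.63 ± 0.14 (adjusted p = 0.0425), Calhm6, a member of a channel family, at 1.06 ± 0.23 (adjusted p = 0.0468), and Sult3a1, a sulfotransferase. A second Gtf3c6 probe differed by -0.20. On the authors' log2 values the called Gtf3c6 probe differed by 0.26 and was not called (adjusted p = 0.0606). Sult3a1 had 7.17, 8.61, 10.44, 9.22 and 8.48 in CoQ10-treated mutants and 6.05, 6.57, 7.34, 7.68 and 7.03 in wild type. Its groups overlapped, through CoQ10 replicate 1, and the difference was 1.85 ± 0.40 (adjusted p = 0.0425). The corresponding values in the average of the other mutants minus wild type were -0.69 and -1.77 for the brighter and dimmer Ddo probes, -1.36 for Rsph4a, -1.18 for Rev3l, -1.01 for Cdc40, -1.003 for Zbtb24, 0.69 for Gtf3c6 and 2.17 for Sult3a1, all called. Mfsd4b1 at 0.34 and Calhm6 at 0.75 were not called there (adjusted p = 0.288 and 0.135).

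**Figure D4:**
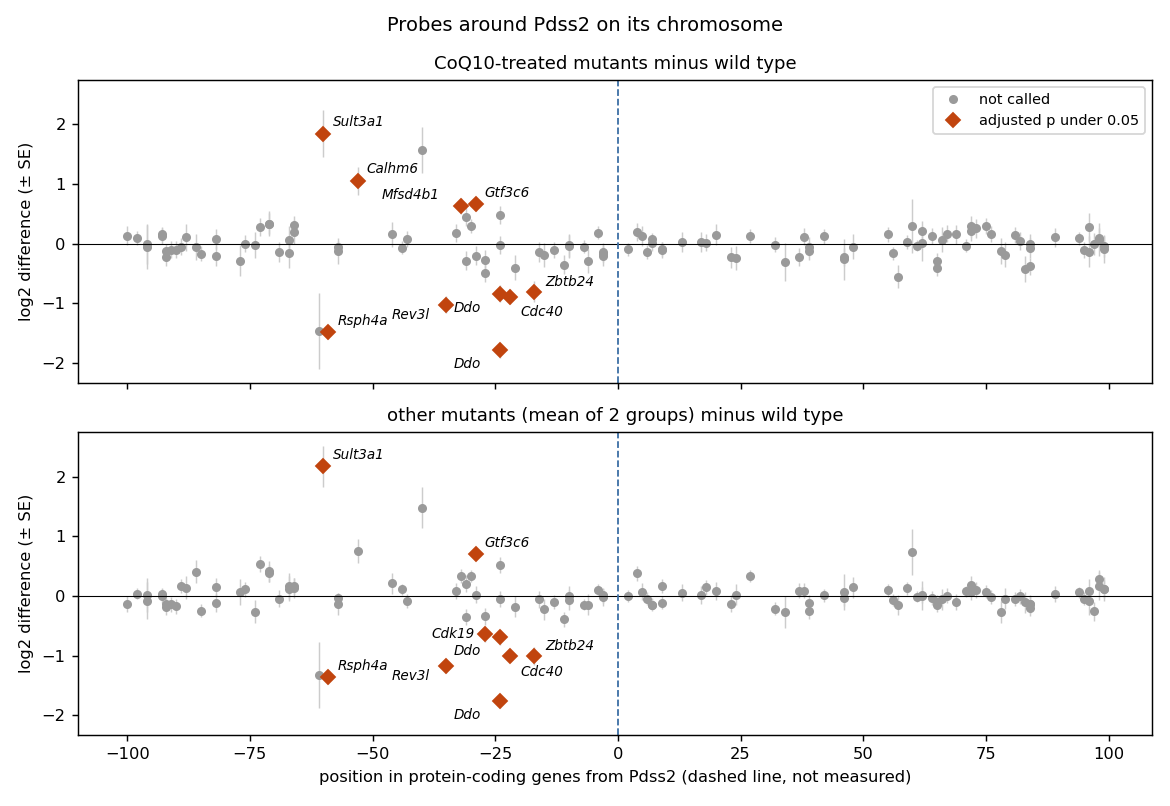
Log2 difference with SE (y axis) of 129 probes by the position of their gene in protein-coding genes from Pdss2 (x axis), for CoQ10-treated mutants minus wild type (upper panel) and for the average of the other mutants minus wild type (lower panel). Diamonds are called probes, 10 and 9 in the 2 panels, all on the side before Pdss2.

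CoQ10-treated mutants also differed from the other mutants, in 27 of 15096 probes (0.179%), of which 10 were higher (0.0662%) and 17 lower (0.113%). A further threshold, an unadjusted p under 0.05, was passed by 1636 probes (10.8%). For 13 of the 27 the CoQ10-treated mutants did not overlap with the 10 other mutants, as was so for 0.258% of all probes tested. Leaving out 1 liver gave 7 to 31 calls, the lowest without CoQ10 replicate 1. Only some named genes were followed through these 10 fits. Enpp6, Nr1d1, Csrnp1 and Plekhb1 kept the call in all 10, Tapbp, Btd and Plekhm3 in 3 and Fat1 in 2. Mast3, Clic1 and the remaining called probes were not followed. Enpp6, a choline-specific glycerophosphodiesterase, had 6.46, 5.65, 5.33, 5.75 and 5.63 in CoQ10-treated mutants and between 6.71 and 7.74 in the other mutants, against 7.63, 7.97, 7.92, 7.30 and 7.10 in wild type. CoQ10-treated mutants lay below all 15 other livers, by -1.51 against other mutants and by -1.82 against wild type (adjusted p = 0.00158 and 0.000199). It was detected in 1 of the 5 treated mutant livers, so that the size is uncertain, and the differences were -0.56 and -0.71 on the authors' log2 values. The average of the other mutants differed from wild type by -0.31 without a call (adjusted p = 0.648).

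Nr1d1 and Csrnp1 showed the same order of groups. Nr1d1 lay between 6.81 and 8.40 in the other mutants, so that CoQ10-treated mutants were lower by 1.53 on the log2 scale (difference -1.53, adjusted p = 0.00414), and Csrnp1 lay between 8.17 and 9.68 (difference -0.995, adjusted p = 0.00414). The kinase gene Mast3 had 9.28, 9.16, 8.91, 8.99 and 8.80 in CoQ10-treated mutants, a median of 9.95 in the other mutants and 9.85, 10.51, 10.78, 10.12 and 10.10 in wild type. It was called against both, at -0.89 against other mutants and -1.25 against wild type (adjusted p = 0.0443 and 0.00517), although 1 of the other mutants overlapped. Tapbp, tapasin, which loads peptides onto MHC class I, was lower by the same tests (-0.62 and -0.75), and a second Tapbp probe differed by -0.08 from wild type. Clic1 was higher against both, at 0.70 against other mutants and 0.78 against wild type.

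Plekhb1, a membrane protein with a PH domain, had another pattern. It had 10.60, 10.20, 9.50, 9.70 and 10.40 in CoQ10-treated mutants, between 8.37 and 9.27 in the other mutants and 10.15, 10.48, 10.42, 9.87 and 10.04 in wild type. CoQ10-treated mutants lay above all 10 other mutants (1.24, 2.36-fold, adjusted p = 0.00267) and overlapped with wild type (-0.11, 95% interval -0.52 to 0.29, adjusted p = 0.871). The average of the other mutants was lower than wild type (-1.35, adjusted p = 0.000226). Biotinidase (Btd) was higher than in the other mutants by 0.47 and the cadherin Fat1 and Plekhm3 lower by 0.53 and 0.70 (differences -0.53 and -0.70), each with an adjusted p of 0.0443, and none of these 3 was called against wild type.

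**Figure D5:**
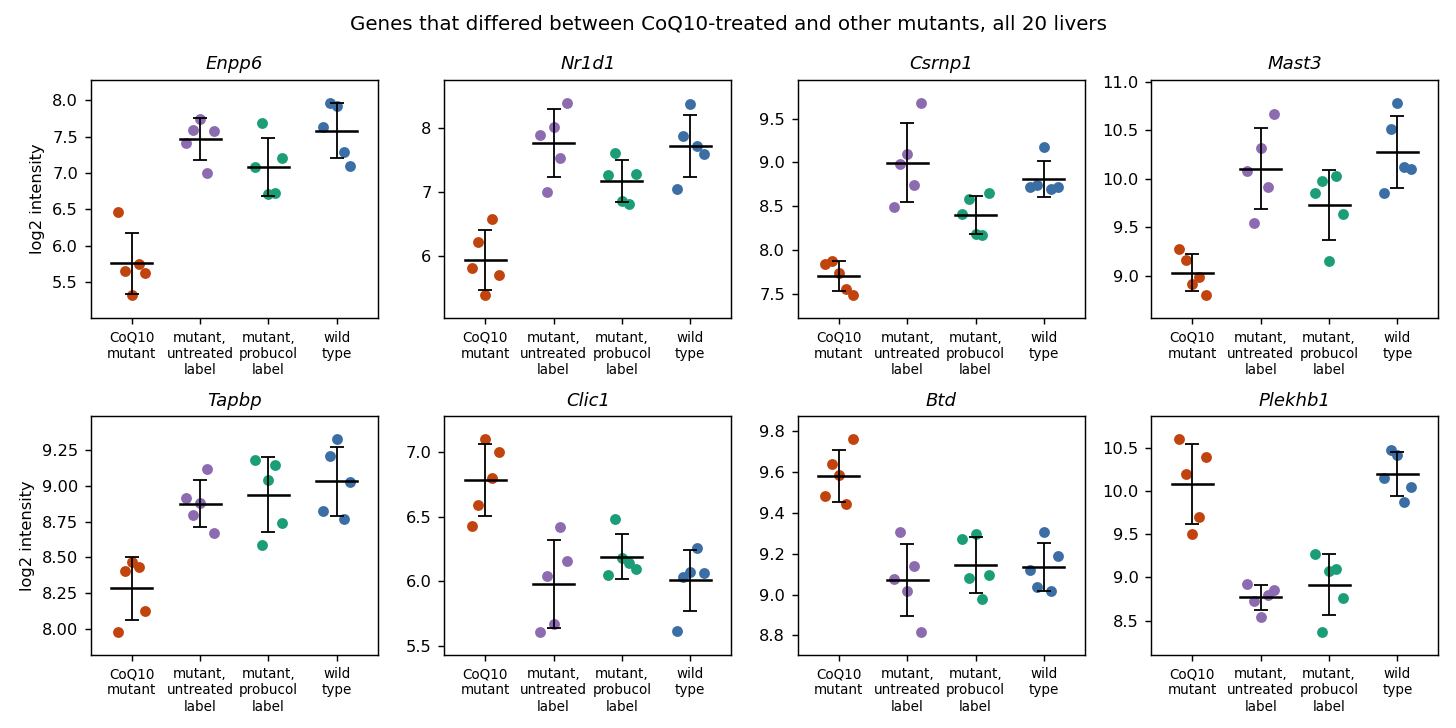
Normalised log2 intensity (y axis, its range set per gene) of 8 genes called between CoQ10-treated and other mutants, in each of the 20 livers, by group from left to right: CoQ10-treated mutants, mutants labelled untreated, mutants labelled probucol and wild type (n = 5 each). Bars are means and error bars SD. CoQ10-treated mutants lie apart from the other 3 groups for Enpp6, Nr1d1 and Csrnp1, and beside wild type for Plekhb1.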

How the data were processed

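Per the labels, RNA of 20 single livers was hybridised to Illumina Mouse WG-6 v2 arrays. The authors deposited a linear bead intensity per probe, neither background-subtracted nor normalised judging by the values, and beside it a detection fraction that increases with intensity, so 1 minus it was used as the detection p. Their second deposited table holds log2 values of unstated normalisation and served as an alternative. Intensities were corrected by normexp (offset 16), quantile-normalised and log2-transformed in limma 3.58.1 (R 4.3.3), and probes detected at p under 0.05 in at least 5 of 20 arrays were kept. Linear models had 4 group means and no covariates. Genes on lists were represented by their brightest probe. A bound ("at least N-fold") sets the brighter group's mean against the lowest detected signal. Arrays limit precision by their number.

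Probes were named from the platform annotation (34807 of 34885 probes with 1 symbol matched the GRCm38.p6 gene table, used for names and gene order). Of the kept probes 13202 had 1 symbol, 5 several and 1889 none. Named were at most 15 rises and 15 falls, the largest among called probes without overlap, up to 8 and 8 against other mutants, up to 4 members of smallest p per described list and all called genes near Pdss2. The members, the comparisons and the 46 gene lists were chosen with earlier results of these data known. The fit was tested on simulated data with noise drawn independently for each probe and array, so deviations shared by a whole liver were not simulated. It recovered 89% of 100 probes shifted by a log2 size of 1 and 98% of 100 shifted by 2. It also called 17 unchanged probes. Alternatives covered background, scaling, filter, fitted groups, blocks, spread and left-out livers. Same-numbered replicates did not deviate together (correlations -0.320 to 0.322), so they were not paired. The labels call the mice biological replicates.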

Additional observations from a re-analysis of the deposited data

Results flagged for a closer look

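Among the genes named in the text, 17 values, each of 1 gene in 1 liver, lay far from the other 4 of their group, out of 208 groups examined, and chance alone gives such a gap in about 5% of groups. In CoQ10-treated mutants they were Rsph4a in replicate 4 (5.51, others 5.15 to 5.24), Mycl in replicate 5 (8.41, others 7.71 to 7.83), Mfsd4b1 in replicate 3 (9.78, others 10.01 to 10.08), Ppargc1a in replicate 5 (7.18, others 7.84 to 7.99), G0s2 in replicate 2 (10.93, others 9.91 to 10.16), Ndufa2 in replicate 5 (12.90, others 13.37 to 13.43), Cox7b in replicate 3 (9.67, others 8.89 to 9.06) and Ifit3 in replicate 2 (10.47, others 10.07 to 10.15). In wild type they were Zbtb16 (5.94, others 8.07 to 8.34), Cebpb (11.93, others 12.82 to 12.99) and Lpin1 (7.57, others 10.66 to 11.36) in replicate 1, Csrnp1 (9.18, others 8.70 to 8.74), Cd209f (6.17, others 5.72 to 5.82) and Coq5 (11.31, others 11.06 to 11.12) in replicate 3, Serpina1e in replicate 2 (9.85, others 10.91 to 11.24), Sod1 in replicate 4 (14.26, others 14.62 to 14.73) and Prdx4 in replicate 5 (13.48, others 13.24 to 13.31).

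For 10 of the genes named in the text the CoQ10-treated mutants differed from the other mutants by the test of that difference itself. The log2 differences, CoQ10-treated minus other mutants, were -1.53 for Nr1d1, -1.51 for Enpp6, -0.995 for Csrnp1, -0.89 for Mast3, -0.70 for Plekhm3, -0.62 for Tapbp, -0.53 for Fat1, 0.47 for Btd, 0.70 for Clic1 and 1.24 for Plekhb1. CoQ10-treated mutants were also older than every other mutant, so treatment and age cannot be told apart in these values.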

How the results depend on the processing

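The count of 66 probes called in CoQ10-treated mutants minus wild type became 145 without background correction, 42 with median scaling, 33 without the filter on dim probes, 130 for probes detected on all 20 arrays, 186 with the compared groups alone in the fit, 316 with the array number and 38 with the array letter as a block, and 112 with a mean-variance trend and robust spread. It was 70 on the authors' log2 values, and of the 66 calls 52 were kept there. Without 1 liver at a time it was 22 to 100. The 27 calls against other mutants became 16 with median scaling, 9 without the filter, 15 for probes detected on all arrays, 8 with the compared groups alone, 13 and 14 with array number and letter as blocks, 7 to 31 without 1 liver and 5 without the 3 livers lowest on the first component, an alternative added after seeing the data. The 12 called list members became 26 without background correction, 7 without the filter, 21 for probes detected on all arrays, 31 with the compared groups alone, 41 with the array number block, 21 with trend and robust spread, and 5 to 14 without 1 liver. The 10 called probes near Pdss2 became 6 without the filter, 6 for probes detected on all arrays, 6 without those 3 livers and 6 to 8 without 1 liver. The cause of these changes was not tested. With the replicate number as a block, which does not pair these mice, the counts were 84 against wild type, 42 against other mutants, 12 list members and 8 near Pdss2. The score difference of 0.6 ran from 0.30 to 0.80 without 1 mouse and was never called, but tied scores limit what this test can reach.

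Over all alternatives the 47 called gene results gave 973 values, of which 314 lost the call and 0 changed sign, and the 60 uncalled ones gave 1257, of which 76 gained it. Medians of lists near 0 changed sign under some alternatives: without 1 liver that of sterol synthesis ran from -0.08 to 0.18, of coenzyme Q synthesis from -0.04 to 0.03 and of the dehydrogenases from -0.02 to 0.05. With median scaling the medians of complex I and complexes III to V were 0.29 and 0.32. Sizes, above all of dim probes, depend on how background is removed. Of 47 called differences 26 were smaller by over 1.5 times without background correction and 28 on the authors' log2 values. By the same measure 0 were larger, so the sizes printed here are at the high end of these alternatives. The 5 mice per group limit what small shifts can reach the threshold.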
